A study of Mus musculus with 6 samples.

Results

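The inhibitor of apoptosis (IAP) genes encode proteins that carry a baculoviral IAP repeat (BIR) domain. They were examined in splenic monocytes of mice with and without the interleukin-4 receptor alpha chain (IL-4Rα), together with *Diablo* and *Htra2*, whose proteins hold no BIR domain but bind to it and block it. The genes were taken by name, with no threshold on a measured value, and are *Birc2*, *Birc3*, *Birc5*, *Birc6*, *Xiap*, *Naip2*, *Naip5*, *Naip6*, *Diablo* and *Htra2*. They are 10 of the 55421 genes in the deposited count tables, and all 10 were among the 13849 genes with enough counts for a test.

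RNA was sequenced from monocytes of 6 C57BL/6 mice, 3 of the IL-4Rα+/+ and 3 of the IL-4Rα-/- genotype, with 1 library per mouse. The knockout is in the germ line, so the receptor chain is missing in the monocytes and in the cells around them alike. The IL-4Rα+/+ mice carry the intact gene, and neither genotype received a treatment that the labels name. Age and sex of the mice are not given in the labels. Spleen monocytes were enriched by negative selection, in which antibodies and magnetic beads take out other leukocytes and the monocytes are left untouched.

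The BIR domain is a zinc-binding fold that grips short peptides, among them the exposed end of a processed caspase. XIAP, encoded by *Xiap*, blocks caspases directly. The cellular IAPs, encoded by *Birc2* and *Birc3*, are ubiquitin ligases that keep tumour necrosis factor (TNF) receptor signalling on the path to NF-kappa B and away from cell death. BIRC6 is a giant ubiquitin-conjugating enzyme that restrains caspases and autophagy. Survivin, encoded by *Birc5*, is made mostly by dividing cells and works in chromosome segregation. The NAIP proteins are cytosolic sensors of bacterial flagellin and secretion needles that assemble the NLRC4 inflammasome in myeloid cells. DIABLO and HTRA2 leave damaged mitochondria and displace caspases from the IAPs.

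Between 26807281 and 29033297 reads per library were counted on genes. Counts were normalised to CPM, that is, to libraries of equal total after scaling by the TMM method. The targeted gene, *Il4ra* (ENSMUSG00000030748.9, chr7:125552120-125579474 of GRCm38, plus strand), had 3903, 3550 and 4686 counts in IL-4Rα+/+ replicates 1, 2 and 3. It had 781, 2268 and 940 counts in IL-4Rα-/- replicates 1, 2 and 3, so the genotypes did not overlap, but replicate 2 stood apart from the other IL-4Rα-/- libraries. The counts cover the whole gene and do not separate the deleted part from the rest. The log2 fold change of *Il4ra* was -1.67 (SE 0.41), with an adjusted p-value of 0.618 from edgeR and of 0.0109 from DESeq2. The libraries also differed in genes of the sex chromosomes, with more *Xist* than *Ddx3y* counts in IL-4Rα+/+ replicate 1 and IL-4Rα-/- replicate 3 and the opposite in the other 4, so that each genotype held 1 library of the first kind.

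The monocyte label was checked against 10 marker genes, which were all detected. Their summed level was 7980 to 10800 CPM in IL-4Rα+/+ and 7390 to 8940 CPM in IL-4Rα-/- libraries. The lowest sums were in IL-4Rα+/+ replicate 3 and IL-4Rα-/- replicate 2. *Ccr2* and *Ly6c2* had higher estimates in IL-4Rα-/-, with log2 fold changes of 0.30 (SE 0.56) and 0.45 (SE 0.27). The lowest estimate was that of *Ace*, at -0.56 (SE 0.43), so the sum joins genes that went in both directions. IL-4Rα+/+ replicate 3 and IL-4Rα-/- replicate 2 also had the highest sums of 12 neutrophil markers of their genotype. These were 276 and 677 CPM, against 62.5 to 235 CPM elsewhere. *Mmp8* made up a large part of both sums, with highest values of 170 CPM in IL-4Rα+/+ and 305 CPM in IL-4Rα-/-. *Ly6g* reached at most 0.0755 CPM in IL-4Rα+/+ and 0.315 CPM in IL-4Rα-/-, and *Retnlg* had a log2 fold change of -0.31 (SE 0.50). The sum of 12 red pulp macrophage markers was 3870 to 4690 CPM in IL-4Rα+/+ and 5010 to 7770 CPM in IL-4Rα-/- libraries, without overlap. The sum of erythroid markers was 74.2 to 142 CPM against 184 to 447 CPM, and that of eosinophil, basophil and mast cell markers was 87.5 to 97.3 CPM against 140 to 223 CPM, again without overlap. B and plasma cell markers summed to 127 to 204 CPM against 192 to 260 CPM, T and NK cell markers to 47.8 to 124 CPM against 45.0 to 111 CPM, and dendritic cell markers to 499 to 826 CPM against 470 to 652 CPM, with overlap in each. Pancreatic enzymes summed to 375 CPM in IL-4Rα-/- replicate 2 and to 10.5 to 55.2 CPM in the other libraries. Estimates in IL-4Rα-/- were higher for 2 of 10 monocyte markers (0 of the 10 with an unadjusted p-value under 0.05 in edgeR), 10 of 11 neutrophil markers tested (4 with such a p-value), 11 of 12 red pulp macrophage markers (6), 11 of 11 erythroid markers (9) and 9 of 11 eosinophil, basophil and mast cell markers tested (8). Over all genes tested, 3.72% were higher with such a p-value in edgeR. None of these marker lists held a gene at 0 in all libraries, and their part in the results below was not tested.

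Of the 10 genes, 9 had a lower and 1 a higher level in IL-4Rα-/- monocytes, and none passed the threshold of an adjusted p-value under 0.15 with edgeR's quasi-likelihood test. Over all genes tested this test called 0 genes, a share of 0%, with a smallest adjusted p-value of 0.618. Before adjustment, 4 genes of the family had a p-value under 0.05, namely *Birc6*, *Xiap*, *Naip2* and *Naip6*. All were lower in IL-4Rα-/-, where 4.37% of all genes tested were lower and 3.72% higher at that level, 8.09% in all. DESeq2 gave the same 4 genes and *Birc5* at that level, where its share over the genes tested with edgeR was 8.03%. The median log2 fold change was -0.258 over the 10 genes and 0.008 over all genes tested, of which 48.5% had a value below 0 and 51.5% a value above 0. No overlap of CPM between genotypes was seen in 5 genes, *Birc6*, *Xiap*, *Naip2* and *Diablo* with lower and *Birc5* with higher values in IL-4Rα-/-, where the background was 7.87% for lower and 7.63% for higher values, 15.5% in all. In each of these 5 the exact two-sided permutation test gave p = 0.10, the smallest value that 3 against 3 libraries can give.

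**Figure D1:**
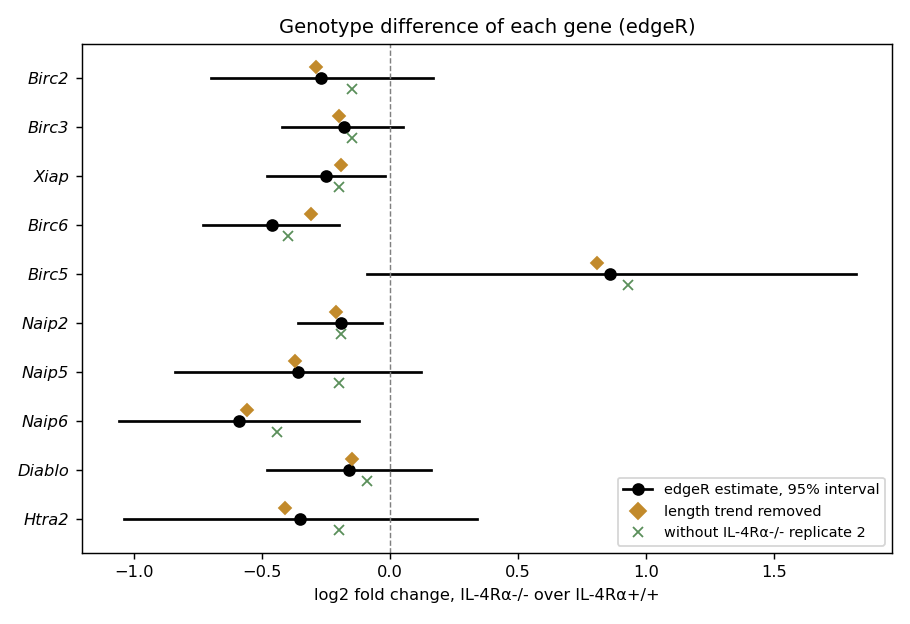
Log2 fold change of each gene, IL-4Rα-/- over IL-4Rα+/+ (x axis), with the edgeR estimate as a black point and its 95% interval as a line over 6 libraries, the estimate with the trend of counts with gene length removed as a diamond, and the estimate without IL-4Rα-/- replicate 2 as a cross. The intervals of Birc6, Xiap, Naip2 and Naip6 lie below 0, and Birc5 is the only gene with estimates above 0.

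The count of 4 changed when a single library was left out, which also leaves fewer libraries for the test. It was 8 without IL-4Rα+/+ replicate 3, where the share over all genes tested was 12.1% in place of 8.09%, and 1 without IL-4Rα-/- replicate 2, where that share was 5.57%. It was 2 without IL-4Rα+/+ replicate 1, IL-4Rα+/+ replicate 2 or IL-4Rα-/- replicate 3, where the shares were 6.48%, 4.44% and 6.98%. Without IL-4Rα-/- replicate 1 it was 3, where the share was 4.5%. *Birc6* was among the genes counted each time. It had an unadjusted p-value under 0.05 in all 19 alternatives tried, each by its own test, against 15 for *Naip6*, 10 for *Naip2* and 9 for *Xiap*. These alternatives use the same libraries or part of them and are not independent. The share of all genes tested that stayed under 0.05 in all 19 was not counted. In all 6 libraries a lower level can mean fewer cells that use a gene or less RNA per cell, which bulk samples do not separate.

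*Birc6* (ENSMUSG00000024073.16) lies on the plus strand at chr17:74528295-74703356 and has 25772 bp of merged exons. It had 305, 305 and 249 CPM in IL-4Rα+/+ and 216, 187 and 219 CPM in IL-4Rα-/- replicates 1, 2 and 3. Each IL-4Rα-/- library was thus below each IL-4Rα+/+ library, with the smallest gap between IL-4Rα+/+ replicate 3 and IL-4Rα-/- replicate 3. The means were 286 ± 32.5 CPM (SD, n = 3) and 207 ± 17.4 CPM (SD, n = 3), a ratio of 0.725 with a 95% interval of 0.602 to 0.872. On the log2 scale the difference was -0.46 (SE 0.11), with an unadjusted p-value of 0.00481 and an adjusted p-value of 0.618 in edgeR's quasi-likelihood test. DESeq2 gave an adjusted p-value of 0.132, which made *Birc6* the 1 gene of the 10 called by that tool, against a background of 0.589% of genes called in either direction and 0.306% called lower. Over all alternatives its adjusted p-value lay between 0.132 and 0.901. With the trend of counts with gene length removed from each library, the log2 fold change was -0.31 (unadjusted p-value of 0.0111 and adjusted p-value of 0.775 in edgeR), and DESeq2 with the same correction no longer called it (adjusted p = 0.634). It was -0.40 without IL-4Rα-/- replicate 2, -0.49 without the 2 libraries that held the most neutrophil marker reads of their genotype, and -0.46 among the 4 libraries with Y-linked reads.

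Among the enzymes and autophagy proteins that BIRC6 works with, 9 of 9 listed genes were tested and 0 reached an unadjusted p-value under 0.05 by edgeR, in a list with 7 higher and 2 lower estimates and a median log2 fold change of 0.03. *Uba6* and *Uba1*, the ubiquitin-activating enzymes, both had a log2 fold change of 0.01. The smallest p-values were those of *Map1lc3a* (log2 fold change 0.39, SE 0.17) and *Gabarap* (0.17, SE 0.09), which encode ubiquitin-like proteins of the autophagosome membrane. Their unadjusted p-values were 0.0562 and 0.108 in edgeR's quasi-likelihood test.

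**Figure D2:**
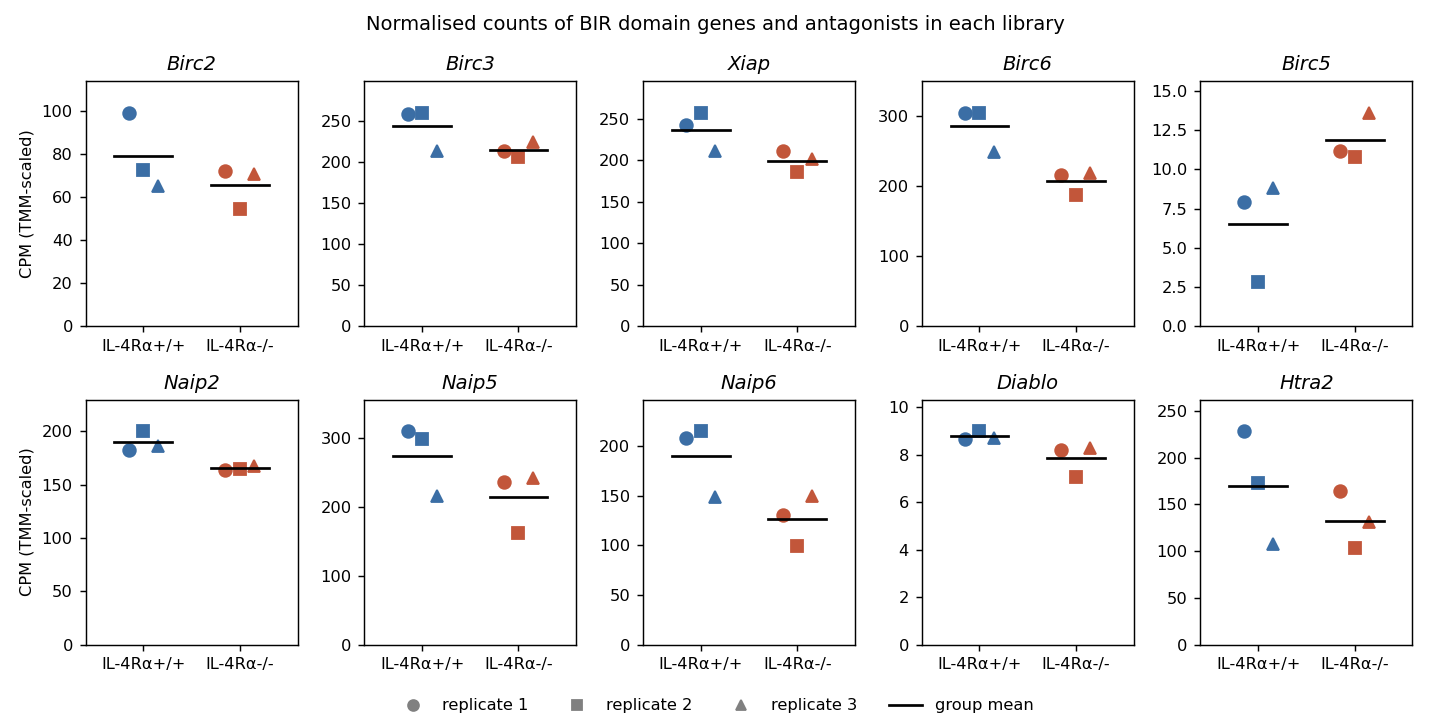
Normalised counts (CPM, y axes from 0, a scale for each gene) of the 10 genes in each library, in blue for IL-4Rα+/+ and in red for IL-4Rα-/-, with the replicate number as the symbol and the group mean of 3 libraries as a line. Birc6 and Naip2 are lower and Birc5 is higher in every IL-4Rα-/- library, while Birc2, Birc3, Naip5, Naip6 and Htra2 overlap between genotypes.

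*Xiap* (ENSMUSG00000025860.15), on the plus strand at chrX:42059679-42109656, had 243, 257 and 211 CPM in IL-4Rα+/+ and 211, 186 and 202 CPM in IL-4Rα-/- replicates 1, 2 and 3. The genotypes came so close that IL-4Rα+/+ replicate 3 and IL-4Rα-/- replicate 1 could not be told apart at this rounding. Its log2 fold change was -0.25 (SE 0.10, 95% interval -0.48 to -0.02), with an unadjusted p-value of 0.0396 and an adjusted p-value of 0.618 in edgeR. Since the gene is X-linked, it was also compared among the 4 libraries with Y-linked reads, which gave a log2 fold change of -0.24 with an unadjusted p-value of 0.153 in edgeR.

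*Birc2* (ENSMUSG00000057367.12, chr9:7818227-7837064) and *Birc3* (ENSMUSG00000032000.17, chr9:7848699-7873186) are neighbours on the minus strand. Their coding sequences were 74.7% identical, and 1.23% of the 75-base windows of the *Birc2* transcript and 3.77% of those of the *Birc3* transcript also occurred in another gene. *Birc2* had 98.9, 72.5 and 65.2 CPM in IL-4Rα+/+ and 71.8, 54.3 and 70.7 CPM in IL-4Rα-/- libraries. The highest value, in IL-4Rα+/+ replicate 1, carried most of the difference, since the log2 fold change was -0.27 (SE 0.18, 95% interval -0.70 to 0.17) with it and -0.07 without it. *Birc3* had 259, 260 and 214 CPM in IL-4Rα+/+ and 214, 206 and 225 CPM in IL-4Rα-/- libraries. IL-4Rα+/+ replicate 3 lay within the IL-4Rα-/- range, and the log2 fold change was -0.18 (SE 0.10, 95% interval -0.42 to 0.05). The exact permutation test gave p = 0.4 for *Birc2* and p = 0.3 for *Birc3*. *Birc2* made up 20.9% to 27.6% of the counts of both genes together in every library, with 21.8% to 27.6% in IL-4Rα+/+ and 20.9% to 25.1% in IL-4Rα-/-.

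The proteins that the cellular IAPs work with at TNF receptors were listed as 20 genes, all of which were tested. Among them 15 had lower and 5 higher estimates in IL-4Rα-/-, with a median log2 fold change of -0.15, and 0 passed the adjusted threshold in edgeR. Before adjustment 4 of them had a p-value under 0.05 in edgeR, all lower. Over all genes tested, 4.37% were lower at that level and 8.09% were lower or higher. *Map3k14*, which encodes the kinase NIK that the cellular IAPs mark for degradation, had a log2 fold change of -0.57 (SE 0.20). It was -0.21 (SE 0.07) for *Cyld*, a deubiquitinase that trims the chains made at the receptor. It was -0.26 (SE 0.10) for *Tab2*, an adaptor of the kinase TAK1, and -0.25 (SE 0.10) for *Chuk*, a kinase that phosphorylates the inhibitor of NF-kappa B. The receptors themselves had log2 fold changes of 0.12 (SE 0.12) for *Tnfrsf1a* and -0.25 (SE 0.13) for *Tnfrsf1b*. The summed level of the 20 genes was 3990 to 4770 CPM in IL-4Rα+/+ and 3520 to 4000 CPM in IL-4Rα-/- libraries, so the genotypes overlapped in the sum.

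*Birc5* (ENSMUSG00000017716.15, chr11:117849251-117855743, plus strand) was the only gene of the family with a higher level in IL-4Rα-/- monocytes. It had 226, 78 and 234 counts in IL-4Rα+/+ and 315, 308 and 403 counts in IL-4Rα-/- replicates 1, 2 and 3, which are 7.94, 2.82 and 8.83 CPM against 11.2, 10.8 and 13.6 CPM. The genotypes did not overlap, and IL-4Rα+/+ replicate 2 was far below the other IL-4Rα+/+ libraries. Its log2 fold change was 0.86 (SE 0.40, 95% interval -0.09 to 1.82), with an unadjusted p-value of 0.0697 and an adjusted p-value of 0.620 in edgeR, and it was 0.50 without IL-4Rα+/+ replicate 2. The other genes of the chromosomal passenger complex, in which survivin sits on dividing chromosomes, had higher estimates as well. Their log2 fold changes were 0.61 (SE 0.23) for *Aurkb*, its kinase, 0.30 (SE 0.12) for *Incenp*, its scaffold, and 0.63 (SE 0.32) for *Cdca8*, which encodes borealin. The unadjusted p-values of *Aurkb* and *Incenp* were under 0.05, at 0.0361 and 0.0353 in edgeR's quasi-likelihood test, while that of *Cdca8* was 0.0896. All 10 of the proliferation genes had higher estimates, 8 of them without overlap between genotypes, where 7.63% of all genes tested were higher without overlap. By edgeR, 3 had an unadjusted p-value under 0.05, namely *Cdk1* (log2 fold change 0.93, SE 0.36), *Plk1* (0.78, SE 0.29) and *Mcm5* (0.42, SE 0.15). Over all genes tested, 3.72% were higher at that level, which is the background for the passenger complex genes as well. The proliferation genes summed to 295, 165 and 283 CPM in IL-4Rα+/+ and 361, 336 and 364 CPM in IL-4Rα-/- libraries, and IL-4Rα+/+ replicate 2 had the lowest sum, as it had the lowest *Birc5*. The sums of erythroid, red pulp macrophage, and eosinophil, basophil and mast cell markers given above were also higher in every IL-4Rα-/- than in every IL-4Rα+/+ library, and their part in the *Birc5* values was not tested.

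*Naip2*, *Naip5* and *Naip6* lie side by side on the minus strand of chromosome 13 and are close copies. Their coding sequences were 97.0% identical between *Naip5* and *Naip6*, 89.8% between *Naip2* and *Naip5* and 89.5% between *Naip2* and *Naip6*. A read of 75 bases that fits 2 genes equally well has no unique place and is not counted, so the sequences show which stretches could tell the copies apart. Of 3063 coding windows of 75 bases that lie within a single exon of each gene, 88 were identical in all 3 genes, and the median window had 68 identical positions. The first such window along the coding sequence, given on GRCm38, has the same bases in every copy:
Naip2, chr13:100161901-100161975, minus strand: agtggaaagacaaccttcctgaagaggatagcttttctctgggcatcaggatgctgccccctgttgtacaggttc
Naip5, chr13:100223233-100223307, minus strand: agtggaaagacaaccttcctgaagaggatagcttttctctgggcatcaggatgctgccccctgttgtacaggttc
Naip6, chr13:100300520-100300594, minus strand: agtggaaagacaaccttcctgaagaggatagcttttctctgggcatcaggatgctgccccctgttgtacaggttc
The least alike window, with 41 identical positions, is shown with capitals at the positions where the 3 genes are not all the same:
Naip2, chr13:100160443-100160517, minus strand: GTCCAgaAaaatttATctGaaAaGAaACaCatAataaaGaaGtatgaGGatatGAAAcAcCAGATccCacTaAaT
Naip5, chr13:100221775-100221849, minus strand: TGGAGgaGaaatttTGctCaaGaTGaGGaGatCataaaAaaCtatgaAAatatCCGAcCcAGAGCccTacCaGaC
Naip6, chr13:100299062-100299136, minus strand: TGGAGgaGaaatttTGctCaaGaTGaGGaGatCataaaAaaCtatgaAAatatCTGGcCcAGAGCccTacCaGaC
Even there *Naip5* and *Naip6* stay close to each other, and *Naip2* carries most of the differences. Over the whole transcript, 23.8% of the windows of *Naip5*, 12.0% of those of *Naip6* and 10.9% of those of *Naip2* also occurred in another gene, so the levels of these genes are too low by an unknown amount.

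**Figure D3:**
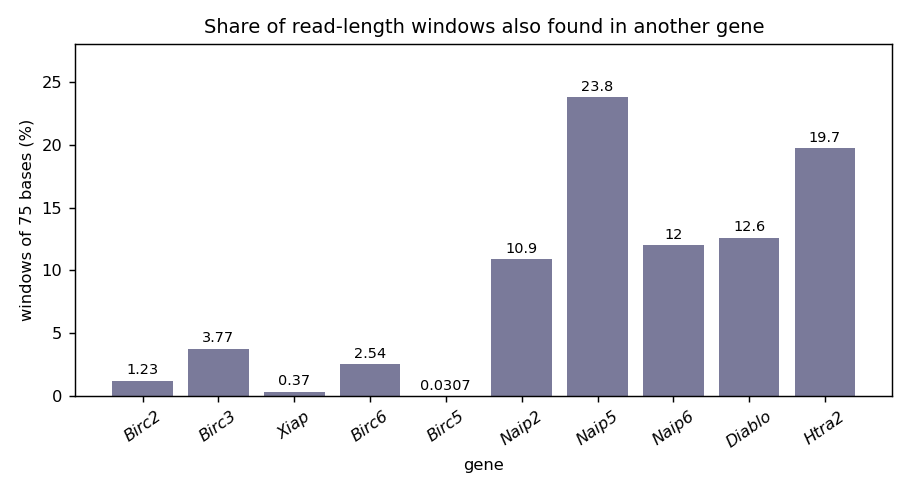
Share of the 75-base windows of each gene's longest protein-coding transcript that also occur in a transcript of another gene (y axis, percent). The bars of Naip5 (23.8%) and Htra2 (19.7%) are the tallest, and the bars of Birc2, Birc3, Birc5, Birc6 and Xiap stay under that of Naip2 (10.9%).

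*Naip2* (ENSMUSG00000078945.10, chr13:100144063-100202092), whose protein senses the bacterial inner rod, had 183, 200 and 186 CPM in IL-4Rα+/+ and 164, 165 and 168 CPM in IL-4Rα-/- libraries. The genotypes did not overlap, and the spread within IL-4Rα-/- was small. *Naip2* had a log2 fold change of -0.19 (SE 0.07, 95% interval -0.36 to -0.03), with an unadjusted p-value of 0.0296 and an adjusted p-value of 0.618 in edgeR. *Naip6* (ENSMUSG00000078942.10, chr13:100281121-100317674), a flagellin sensor, had 208, 215 and 149 CPM in IL-4Rα+/+ and 131, 99.7 and 150 CPM in IL-4Rα-/- libraries. Its log2 fold change of -0.59 (SE 0.20, 95% interval -1.06 to -0.12) was the lowest of the 10 genes, but IL-4Rα+/+ replicate 3 and IL-4Rα-/- replicate 3 overlapped. Its p-value in edgeR was 0.0216 before and 0.618 after adjustment, and the log2 fold change was -0.44 with an unadjusted p-value of 0.0503 without IL-4Rα-/- replicate 2. *Naip5* (ENSMUSG00000071203.6, chr13:100211739-100246323), the other flagellin sensor, had 310, 299 and 216 CPM in IL-4Rα+/+ and 237, 163 and 242 CPM in IL-4Rα-/- libraries. The pattern over libraries followed that of *Naip6*, with the lowest value of each genotype in IL-4Rα+/+ replicate 3 and IL-4Rα-/- replicate 2, and the log2 fold change was -0.36 (SE 0.20, 95% interval -0.84 to 0.12). It was -0.20 without IL-4Rα-/- replicate 2.

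The counts of *Naip1*, *Naip2*, *Naip3*, *Naip5*, *Naip6* and *Naip3-ps1* were also summed before the test. Reads that fit several of these genes equally well are left out of the sum too. The sum had a log2 fold change of -0.37 (SE 0.15), with an unadjusted p-value of 0.0402 and an adjusted p-value of 0.618 in edgeR. *Naip1*, *Naip2*, *Naip5* and *Naip6* alone summed to 706, 717 and 550 CPM in IL-4Rα+/+ and 535, 429 and 561 CPM in IL-4Rα-/- libraries. *Naip5* held 38.0% to 44.4%, *Naip2* 25.9% to 38.5% and *Naip6* 23.3% to 30.0% of this sum. The share of *Naip6* was 27.0% to 30.0% in IL-4Rα+/+ and 23.3% to 26.7% in IL-4Rα-/- libraries, and IL-4Rα-/- replicate 2 and IL-4Rα+/+ replicate 3 had the largest shares of *Naip2*, at 38.5% and 33.7%. *Naip1*, a sensor of the secretion needle, was low, at 2.51 ± 1.91 CPM and 1.34 ± 0.951 CPM (SD, n = 3 each), and its log2 fold change of -0.91 had an SE of 0.76. *Naip3* was listed at 0.0832 ± 0.0801 CPM and 0.0705 ± 0.0701 CPM (SD, n = 3 each) and was not tested, and *Birc7*, which encodes livin, had 0 counts in all 6 libraries, which allows up to 3 counts in each.

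The partners of the NAIP proteins in the inflammasome were listed apart from the sensors. Of 7 genes tested, 5 had lower and 2 higher estimates, with a median log2 fold change of -0.08. *Nlrc4*, which encodes the protein that NAIP sensors recruit, had a log2 fold change of -0.08 (SE 0.08), and *Casp1*, the inflammatory caspase it activates, had -0.02 (SE 0.06). *Pycard*, which encodes the adaptor ASC, had the largest estimate of the list, at -0.75 (SE 0.31), with 73.1 ± 24.7 CPM in IL-4Rα+/+ and 43.6 ± 13.7 CPM in IL-4Rα-/- (SD, n = 3 each). Its genotypes overlapped, and its unadjusted p-value was 0.0506 in edgeR and 0.0152 in DESeq2. *Il18*, a cytokine that caspase-1 matures, had 47.3 ± 4.97 CPM in IL-4Rα+/+ and 65.0 ± 7.03 CPM in IL-4Rα-/- (SD, n = 3 each) and was the 1 gene of this list with an unadjusted p-value under 0.05. Its log2 fold change was 0.46 (SE 0.12), with an unadjusted p-value of 0.00612 and an adjusted p-value of 0.618 in edgeR, and the genotypes did not overlap. Over all genes tested, 3.72% were higher at an unadjusted p-value under 0.05 in edgeR, and 7.63% were higher without overlap.

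*Diablo* (ENSMUSG00000029433.16, chr5:123509765-123524176, minus strand) had few reads, with 246, 248 and 230 counts in IL-4Rα+/+ and 229, 201 and 245 counts in IL-4Rα-/- libraries. This is 8.64, 8.97 and 8.68 CPM against 8.18, 7.04 and 8.29 CPM, which did not overlap. *Diablo* had a log2 fold change of -0.16 (SE 0.13, 95% interval -0.48 to 0.16), with an unadjusted p-value of 0.268 and an adjusted p-value of 0.729 in edgeR. The level of *Diablo* is too low by an unknown amount. Of its 714 coding bases, 708 (99.2%) lie under exons of *Gm49027*, a protein-coding gene annotated on the same strand, and reads there belong to both genes and are left out as ambiguous. *Gm49027* itself had 8 to 16 counts per library.

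*Htra2* (ENSMUSG00000068329.12, chr6:83051266-83055273, minus strand), a mitochondrial protease, had the widest spread over IL-4Rα+/+ libraries after *Birc5*. It had 228, 173 and 108 CPM in IL-4Rα+/+ and 164, 103 and 131 CPM in IL-4Rα-/- libraries. The range within IL-4Rα+/+, 2.1-fold from lowest to highest, was larger than the difference of the means, which were 170 ± 59.7 CPM and 133 ± 30.8 CPM (SD, n = 3 each). On the log2 scale the difference was -0.35 (SE 0.29, 95% interval -1.04 to 0.34), and it was -0.08 without IL-4Rα+/+ replicate 1. The exons of *Htra2* overlap those of *Aup1* by 25.6% and those of *Loxl3* by 18.2%, both on the opposite strand. *Aup1* had 5494 to 7202 and *Loxl3* 244 to 791 counts per library, and since the strand column that was counted is not stated, reads of these genes could be among those of *Htra2* or be left out. The further antagonists *Xaf1*, which binds XIAP, and *Sept4*, whose ARTS isoform does so too, gave log2 fold changes of 0.07 (SE 0.16) and -0.73 (SE 0.43), and 0 of these 2 had an unadjusted p-value under 0.05 by edgeR.

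To compare the genes with each other, levels were divided by the length of the merged exons and are given as RPKM, which is CPM per kilobase. In IL-4Rα+/+ libraries *Htra2* had the highest level per length (57.6 ± 20.3 RPKM), followed by *Naip5* (52.9 ± 9.94 RPKM) and *Birc3* (48.8 ± 5.29 RPKM, SD, n = 3 each), and these 3 overlapped. Next by mean came *Naip2* (39.1 ± 1.95 RPKM). Its values, 37.7 to 41.4 RPKM, lay within the range of *Htra2* (36.8 to 77.2 RPKM) and below those of *Naip5* and *Birc3*. Then came *Naip6* (27.9 ± 5.38 RPKM) and *Xiap* (25.0 ± 2.48 RPKM), which overlapped with each other. *Birc2* (17.2 ± 3.86 RPKM) and *Birc6* (11.1 ± 1.26 RPKM) followed without overlap. *Birc6*, with the longest exons, thus had the highest mean CPM of the 10 genes in IL-4Rα+/+ and the eighth level per length. *Birc5* (1.92 ± 0.954 RPKM) and *Diablo* (1.42 ± 0.0291 RPKM) were the lowest and overlapped. The counting limits given above for *Diablo*, *Htra2* and the *Naip* genes were not corrected for, so their places in this order are uncertain. With the length of the longest transcript in place of the merged exons, *Birc3* came first at 84.0 RPKM, and *Xiap* had 34.7, *Birc2* 23.7, *Birc6* 18.1 and *Diablo* 2.59 RPKM, so the order of neighbours rests on which transcript is used, which was not measured here.

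**Figure D4:**
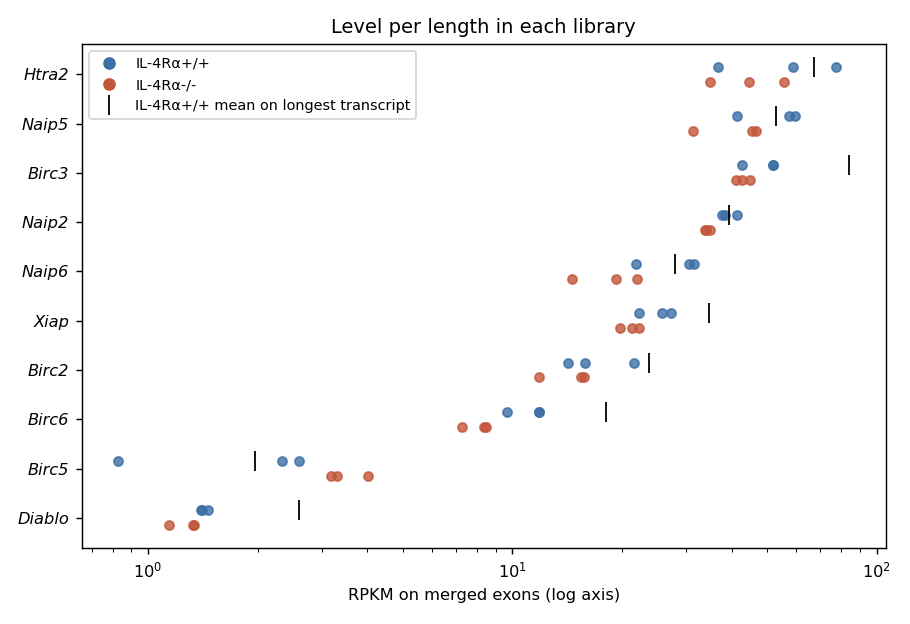
Level per length of each gene (RPKM on merged exons, log x axis), with 1 point per library in blue for IL-4Rα+/+ and red for IL-4Rα-/-, in the order of the IL-4Rα+/+ means, and a tick at the IL-4Rα+/+ mean on the longest transcript. Htra2, Naip5 and Birc3 lie highest, and Birc5 and Diablo lie lowest, at 0.829 to 4.01 and 1.14 to 1.46 RPKM over the 6 libraries.

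Levels of the genes were also set against each other over the 6 libraries, on the log2 CPM scale, where values of a library share its genotype, cell makeup and normalisation. Pearson's r was positive for each pair among the 9 genes other than *Birc5*, from 0.346 between *Naip2* and *Htra2* and 0.351 between *Birc2* and *Naip2* to 0.964 between *Birc6* and *Xiap* and 0.97 between *Birc6* and *Naip6*. It was 0.955 between *Naip5* and *Naip6* and 0.617 between *Naip2* and *Naip5*. With *Birc5* it was negative for each of the other 9 genes, from -0.206 with *Birc2* to -0.887 with *Naip2*. These signs go with the directions of the fold changes, since the genotype difference is part of the values. The spread of r over pairs of other genes is not given here. With the summed monocyte markers, r ranged from 0.532 for *Naip2* to 0.972 for *Htra2* among the 9 genes, 0.858 for *Birc6* and -0.521 for *Birc5*. The lowest level of *Birc2*, *Birc3*, *Birc6*, *Xiap*, *Naip5*, *Naip6*, *Diablo* and *Htra2* was in IL-4Rα-/- replicate 2, where the monocyte marker sum was lowest and the neutrophil marker sum highest. Without this library and IL-4Rα+/+ replicate 3, the log2 fold changes were -0.49 for *Birc6*, -0.28 for *Xiap*, -0.59 for *Naip6*, -0.34 for *Naip5*, -0.24 for *Birc3*, -0.20 for *Naip2* and 1.21 for *Birc5*, in the direction they had with all libraries. The genes most like *Birc6* among 8601 others with at least 10 CPM on average were *Dennd6a* (r = 0.999), *Otud4* (r = 0.995) and *Smug1* (r = 0.994), each with a Spearman correlation of 0.943 over the 6 libraries.

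**Figure D5:**
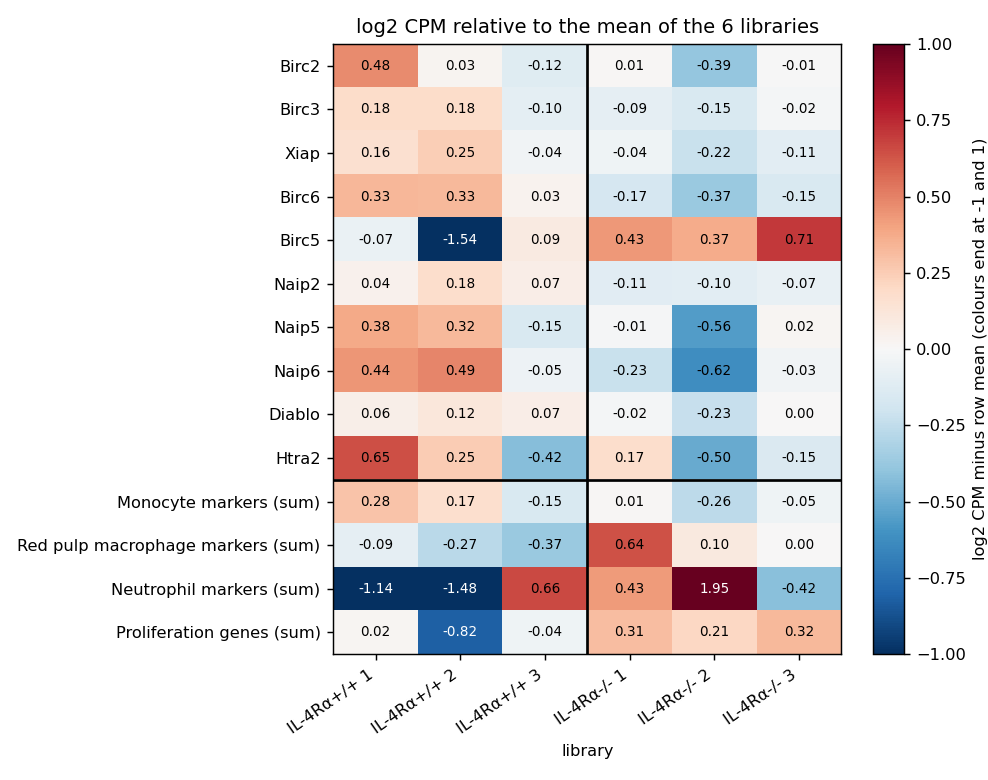
Log2 CPM of each gene and of 4 summed marker lists in each library, minus the mean of the 6 libraries (the number in each cell, with colours that end at -1 and 1), with IL-4Rα+/+ on the left and IL-4Rα-/- on the right of the vertical line. IL-4Rα-/- replicate 2 has the lowest values of all genes but Birc5 and Naip2, and Birc5 follows the proliferation genes, with its lowest value (-1.54) in IL-4Rα+/+ replicate 2.

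Promoters were searched for motifs of factors that act downstream of IL-4Rα or control these genes. RefSeq (GRCm38.p6) gave 12 promoters for 9 of the 10 genes, each from 250 bases before the start of transcription, and both strands were read. The STAT6 motif TTCNNNNGAA occurred in none of the 12, where 5.85% of 32851 promoters held it, and the related TTCNNNGAA, held by 7.02%, occurred in none as well. The NF-kappa B motif GGGNNTTTCC was found in the *Birc5* promoter, 44 bases before the start, where 1.41% of all promoters held it. It is shown in capitals, as the only match of this motif:
Birc5, chr11:117849185-117849210, plus strand: cgtggggcGGGACTTTCCcggctcgc
The cell cycle motif TTTGAA, held by 16.0% of promoters, was found for *Xiap* and *Naip5* and not for *Birc5*. These matches describe the letters in the windows and not the binding of a factor.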

How the data were processed

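RNA of splenic monocytes, from 3 mice per genotype, was sequenced as single-end reads of 75 bases. The authors aligned the reads to GRCm38 with STAR (2.6.1a) and Gencode annotation, and deposited raw counts of uniquely placed reads per gene, without normalization, in 1 file per library. Which strand column was kept is not given in the sources used here. STAR's 4 summary lines, 21.1% to 22.8% of reads, were left out. 1 count was 0.0344 to 0.0373 CPM.

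Libraries were grouped by genotype from the labels. The labels do not say more of the mice, so p-values measure the spread between these libraries. Genes were kept by filterByExpr (minimum count 10), scaled by TMM and compared with edgeR (version 4.0.16, R 4.3.3) by its quasi-likelihood test. Benjamini-Hochberg adjustment ran over all 13849 genes, at the study's threshold of 0.15. Standard errors came from the same test. For single genes a two-sided exact permutation test of mean CPM was added. Alternatives were DESeq2 1.42.0, limma-voom (limma 3.58.1), other scalings, no filter, a threshold of 0.05, loess trends (span 0.5) of log2 counts with length or GC content removed, the replicate block, summed Naip counts and each library left out. Leaving out 2 libraries together, the term for Xist or Y-linked reads and the libraries with Y-linked reads alone were chosen after seeing the data. The edgeR, DESeq2, limma-voom, block and length trend fits were checked on simulated counts.

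Symbols, positions and exons came from Gencode M21 (55240 of 55421 identifiers matched), and promoters from RefSeq. *Naip4*, *Naip7* and *Ahsp* were not matched by name. The members and lists were chosen with earlier results of these data known. The genes named were the members, *Il4ra*, other BIR domain genes, the genes of each list with an unadjusted p-value under 0.05 or else the 2 with the smallest p-value, and the 3 genes most like *Birc6*. Cell type markers are given as sums, apart from *Mmp8*, *Ly6g*, *Retnlg*, *Ccr2*, *Ly6c2* and *Ace*, which were named after their values were seen. A further list of partner genes is not reported here. Tnfrsf1a, Tnfrsf1b, Uba6, Uba1, Nlrc4, Casp1, Pycard and Cdca8 were named outside this rule, for their role and after their values were seen, and the pancreatic enzymes were listed after earlier results.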

Additional observations from a re-analysis of the deposited data

How the results depend on the processing

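In all 19 alternatives, each of the 10 genes kept the direction of its reported log2 fold change. These were changes of scaling, filter, test, trend, block and libraries. The summed *Naip* counts, a single value for the copies together, had a log2 fold change of -0.37. The reported count of genes called was 0 by edgeR, with 1120 genes at an unadjusted p-value under 0.05. DESeq2 called 81 genes, 27 with the length trend removed, and limma-voom 0, and edgeR without IL-4Rα+/+ replicate 3 and IL-4Rα-/- replicate 2 called 1. Of the 10 genes DESeq2 called 1, *Birc6*. The count at an unadjusted p-value under 0.05, reported as 4, was 2 with library size alone and 2 among the libraries with Y-linked reads alone, and 1 to 8 with a library left out. The same count over all genes was 627 without IL-4Rα+/+ replicate 2, 1724 without IL-4Rα+/+ replicate 3, 638 without IL-4Rα-/- replicate 1, 919 without IL-4Rα+/+ replicate 1, 793 without IL-4Rα-/- replicate 2, 987 without IL-4Rα-/- replicate 3 and 711 among the libraries with Y-linked reads. *Il4ra* passed the threshold at a log2 fold change of -1.67 with DESeq2, of -1.64 with DESeq2 and the length trend removed, and of -2.15 without IL-4Rα+/+ replicate 3 and IL-4Rα-/- replicate 2, and its log2 fold change lay between -2.3 and -1.41 with a library left out. The causes were not tested.

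Deviations from the group means of same-numbered libraries had correlations of 0.185, -0.271 and -0.296 over 13849 genes. The highest correlation was 0.462, between IL-4Rα+/+ replicate 3 and IL-4Rα-/- replicate 2. Deviations from a mean of 3 libraries are tied to each other, so these values cannot decide whether the replicate numbers pair the libraries. With the replicate block, 2 of the 10 genes, *Birc5* and *Birc6*, had an unadjusted p-value under 0.05 in edgeR's test, 0 genes were called and 765 genes passed the unadjusted level. The log2 fold change of *Birc6* was -0.46 with the block (edgeR adjusted p = 0.812, over alternatives 0.132 to 0.901).

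With 3 libraries per genotype the exact test cannot go below p = 0.10, and the intervals of *Birc2*, *Birc3*, *Birc5*, *Naip5*, *Diablo* and *Htra2* hold 0. *Birc5* and *Diablo* had the fewest counts of the 10 genes, with 78 to 403 and 201 to 248 per library, and overlapping or near-identical genes limit *Diablo*, *Htra2* and the *Naip* genes.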
